A study of Mus musculus with 31 samples.

Results

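H3K4me1 was compared between the hippocampus of Kmt2d heterozygous mice and that of wild type mice, both given vehicle. The comparison rests on 8 of the 31 ChIP-seq libraries of the series, 4 per genotype, taken by their labels, and on their peak lists. It also rests on all 781 regions of the deposited list that sets heterozygotes against wild type for H3K4me1, out of 11752 regions in 8 such lists. Direction was recomputed from the scores of each region. Nothing was selected by size of change beyond the authors' own p threshold, which was applied to these same libraries.

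The wild type group was KMT2D+/+ and the heterozygous group KMT2D+/bGeo, an allele in which a βGeo reporter cassette interrupts the gene in every cell of the animal. All 8 mice were of the C57BL6 strain and 30 days old, and had received methylcellulose vehicle by mouth for 2 weeks from 2 weeks of age. The other mice of the series received the LSD1 inhibitor TAK-418 at 1 mg/kg/day. Chromatin was precipitated from hippocampal tissue, so a smaller share of marked cells and less mark per cell cannot be told apart.

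H3K4me1 is a single methyl group on lysine 4 of histone H3 and is known for marking enhancers, with the flanks of active promoters. KMT2D is one of the main enzymes that place it at enhancers, and loss of a KMT2D copy causes Kabuki syndrome, in which hippocampal neurogenesis and memory are affected. KDM1A (LSD1) removes mono- and dimethyl marks from the same residue. H3K4me3, the trimethyl form, sits at active promoters and was measured in the same mice.

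Few of the listed regions touched a promoter. Of the 781, 36 (4.61%) lay within 2 kb of a protein-coding transcription start, 268 (34.3%) lay elsewhere inside a protein-coding gene, 75 (9.60%) inside another annotated gene and 402 (51.5%) between genes. None of the regions named by the rule for single regions overlapped a promoter window, so the promoters below were chosen after their values were seen. They are shown because they lie in 3 of the 9 clusters of listed regions, each with more higher than lower ones. Each runs 5′ to 3′ from 250 bases before to 50 bases after the start, from RefSeq on GRCm38.p6, with matches to GGGCGG and CCAAT on either strand in capitals.

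The window of Gm36327 is chr6:47675332-47675631 on the plus strand. The windows of Gm40367 (chr6:47662342-47662641) and Gm40369 (chr6:47653742-47654041) carry the same 300 bases, as does 1 further gene of the table, Gm40364. Sp140 (chr1:85600453-85600752, plus strand) and Sp110 (chr1:85598761-85599060, minus strand) encode nuclear body proteins of the SP100 family and lie side by side. Duxf3 (chr10:58233040-58233339, minus strand) belongs to the Dux double homeobox family.

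Gm36327, Gm40367 and Gm40369: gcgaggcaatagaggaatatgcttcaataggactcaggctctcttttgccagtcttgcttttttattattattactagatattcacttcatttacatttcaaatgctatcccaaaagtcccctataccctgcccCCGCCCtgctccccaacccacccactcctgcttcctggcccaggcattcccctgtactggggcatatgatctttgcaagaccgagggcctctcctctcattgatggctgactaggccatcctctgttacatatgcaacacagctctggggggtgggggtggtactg

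Sp140: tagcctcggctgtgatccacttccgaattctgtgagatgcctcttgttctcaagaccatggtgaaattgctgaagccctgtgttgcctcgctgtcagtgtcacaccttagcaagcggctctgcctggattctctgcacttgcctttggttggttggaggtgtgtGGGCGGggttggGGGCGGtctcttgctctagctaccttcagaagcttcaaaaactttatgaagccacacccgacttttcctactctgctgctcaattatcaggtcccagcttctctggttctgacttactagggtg

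Sp110: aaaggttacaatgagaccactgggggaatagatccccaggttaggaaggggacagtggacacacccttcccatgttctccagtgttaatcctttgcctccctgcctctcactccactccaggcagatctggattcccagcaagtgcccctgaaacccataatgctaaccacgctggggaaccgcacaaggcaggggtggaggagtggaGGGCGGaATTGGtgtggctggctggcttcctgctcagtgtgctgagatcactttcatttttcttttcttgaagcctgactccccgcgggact

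Duxf3: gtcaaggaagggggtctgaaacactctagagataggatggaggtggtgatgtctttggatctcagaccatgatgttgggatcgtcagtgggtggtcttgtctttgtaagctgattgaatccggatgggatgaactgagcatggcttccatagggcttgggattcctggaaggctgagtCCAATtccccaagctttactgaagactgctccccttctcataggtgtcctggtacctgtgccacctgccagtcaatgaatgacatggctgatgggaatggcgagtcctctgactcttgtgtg

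Sequenced reads from the 3 identical windows cannot be assigned to 1 of them by their letters. At least 1 GGGCGG was found in the Gm36327, Sp140 and Sp110 windows and in 35.7% of all 32851 promoter windows of the table. CCAAT was found in the Sp110 and Duxf3 windows and in 37.4% of all windows. TATAAA was in none of these 4 sequences and in 13.6% of all windows. The E-box word CACGTG was likewise absent, against 7.15%, as was the cAMP response word TGACGTCA, against 1.79%. The 4 windows held 3 (Gm36327), 7 (Sp140), 5 (Sp110) and 3 (Duxf3) CG dinucleotides, beside a median of 7 over the table.

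The H3K4me1 peak lists were short. Wild type replicates 1 to 4 had 400, 192, 271 and 88 peaks, and heterozygote replicates 1 to 4 had 449, 377, 252 and 227. The means were 238 ± 132 (SD, n = 4) in wild type and 326 ± 105 (SD, n = 4) in heterozygotes. The ranges overlapped, and 1 heterozygote library exceeded the longest wild type list. The ratio of geometric means was 1.52, with p = 0.314 in a two-sided exact permutation test and an adjusted p of 0.314 over 7 measures, against a smallest possible p of 0.0286. Read depth is not known from the labels or the peak lists, so its part in the list lengths was not tested.

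Covered length was 406 ± 223 kb in wild type and 589 ± 192 kb in heterozygotes (SD, n = 4 each, exact permutation p = 0.257). Median peak width was 665 ± 119 bp against 782 ± 59.8 bp (p = 0.200, exact permutation). Median fold enrichment, the authors' ratio of signal over background, was 5.67 ± 0.772 against 5.11 ± 0.531 (p = 0.314, exact permutation). No measure separated the genotypes beyond the spread between libraries.

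**Figure D1:**
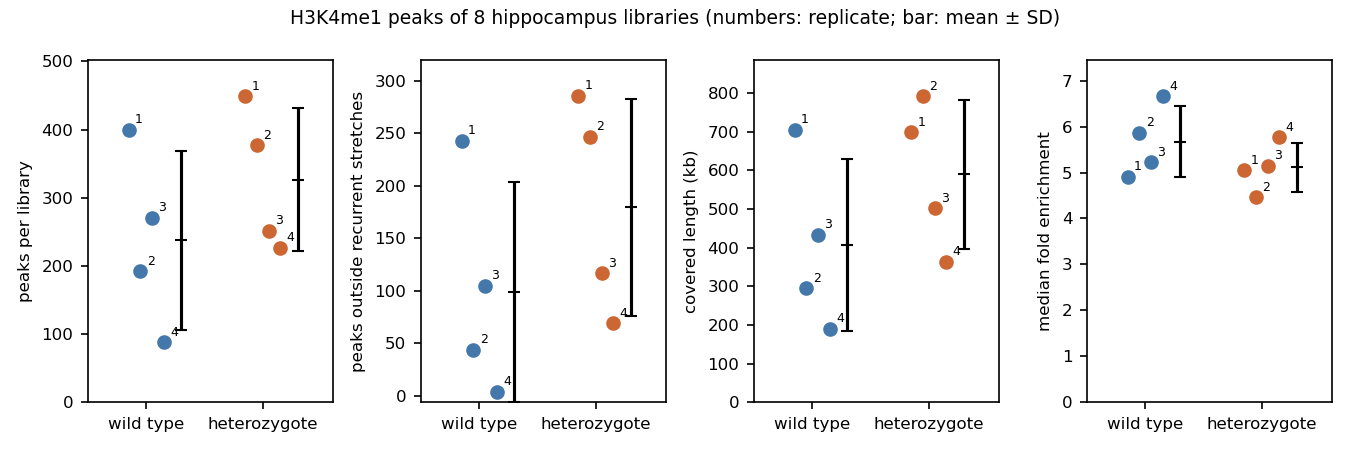
Peaks per library, peaks outside recurrent stretches, covered length in kb and median fold enrichment for the 4 wild type and 4 heterozygote H3K4me1 libraries. Points are libraries with their replicate number and bars are means ± SD; the groups overlap in each panel, and wild type replicate 4 has the shortest list with 88 peaks.

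Many of these peaks lay on stretches that recurred in libraries of both marks. Stretches covered by peaks of at least 8 libraries of each of the 2 marks numbered 232 and spanned 357 kb. They took 39.3%, 77.1%, 61.3% and 95.5% of the peaks in wild type replicates 1 to 4 and 36.3%, 34.5%, 53.6% and 69.6% in heterozygote replicates 1 to 4. Outside them were 243, 44, 105 and 4 wild type peaks and 286, 247, 117 and 69 heterozygote peaks (exact permutation p = 0.229). The group ratio there was 3.36, and wild type replicate 4 with its 4 peaks weighed on it. Per library, 30.0% to 86.3% of the H3K4me1 peaks overlapped an H3K4me3 peak of the same mouse. By contrast, 7.49% to 10.3% lay within 2 kb of a protein-coding start.

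Over the 8 libraries the peaks merged into 751 places, of which 409 were found in 1 library and 56 in all 8. Heterozygote libraries alone held 332 places and wild type libraries alone held 126. No place was found in at least 3 wild type libraries and no heterozygote one, whereas 8 were found in at least 3 heterozygote libraries and no wild type one. Among these 8, 3 were in all 4 heterozygotes: chr10:43562648-43563025 between genes near Cd24a, chr12:20231697-20234406 near Gm32719, and chrX:169993500-169994950 near Mid1. The other 5 lay inside Mroh2a and Zfp978, at 4930467E23Rik (a pair of places) and near Cr2. These counts go with longer heterozygote lists, and the share of them that the list lengths give was not tested. The 3 places were not free of signal in the H3K4me3 libraries. At the listed regions in them, H3K4me3 peaks were found in 2 (Cd24a), 5 and 7 (Gm32719) and 6 (Mid1) of the 8 vehicle mice. The Mid1 place also met a recurrent stretch.

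A peak lay near (within 2 kb of) either end of 58, 41, 49 and 16 protein-coding genes in the wild type libraries and of 64, 61, 48 and 41 in the heterozygote libraries (exact permutation p = 0.314). Together they made 80 of 21900 genes, of which 12 were marked in all 8 libraries, among them Sp110, Sfi1, Hjurp, Mroh2a, Brox, Apool and Duxf3. No gene was marked in at least 3 libraries of 1 genotype and none of the other. Gm2427 was marked in 4 heterozygote libraries and 1 wild type library.

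The tissue label was checked on marker genes. In the longest H3K4me3 list of the heterozygous vehicle mice, 56.1% of all 21900 protein-coding genes had a peak at an end, and 55.1% in the longest wild type list. Excitatory neuron and synapse genes (30) lay above that background, at 80.0% and 76.7%. Inhibitory neuron genes (18) were at 55.6% in both lists, near it. The shares in the heterozygote and wild type list were 57.1% and 42.9% for astrocytes (14 genes), 64.3% and 42.9% for the oligodendrocyte lineage (14) and 62.5% and 25% for choroid plexus and ependyma (8). They were 50% and 33.3% for vascular cells (12), 28.6% and 7.14% for microglia (14) and 0% in both for blood cells (11). The heterozygote list was thus the higher of these 2 libraries for the glial, vascular and choroid genes, and the part of cell composition in the results was not tested. In the 8 H3K4me1 libraries, 1 of the 361 genes in 17 lists, pathway lists included, had a peak at an end in any library. Beside it stand 80 of all 21900 protein-coding genes, a share of like size. The list gene with a peak was Wls of the Wnt list, which escorts Wnt ligands to the cell surface. Peaks elsewhere in or around the marker genes were not counted.

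The deposited list gives each region 4 wild type and 4 heterozygote scores. They are normalized values of a kind not named in the sources used here, and they do not name their libraries, so they are called scores 1 to 4 of each genotype. The authors' deposited list held 387 regions lower (49.6%) and 394 higher (50.4%) in heterozygotes, with the smallest −log10 p at 1.31. The higher and the lower regions differed in kind. Of the 394 higher regions, 245 lay on recurrent stretches, 108 had a peak in at least 1 of the 8 libraries outside them and 41 had none. Of the 387 lower regions, 45 lay on recurrent stretches, 34 had a peak and 308 had no H3K4me1 peak in any of the 8 libraries.

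With limma on log2(score + 1), 0 of 781 regions (0%) passed an adjusted p of 0.05, and 29 had an unadjusted p under 0.05. Of these, 25 were higher (3.2% of the list) and 4 were lower (0.512%). That direction held under most settings. Divided by each library's median over the list (the list median), 33 were higher and 15 lower. It turned under others. When each library was divided by its median over regions with a peak or recurrent, 70 were lower and 0 higher. Without heterozygote score 1, 134 were lower and 22 higher. The smallest adjusted p in limma was 0.409. The 4 wild type and 4 heterozygote scores did not overlap at 31 regions, 27 higher (3.46%) and 4 lower (0.512%) in heterozygotes. Divided by the medians over regions with a peak or recurrent, 6 higher and 59 lower regions did not overlap. Under the list median, 37 higher and 19 lower did not. Because the authors chose the list by p on these libraries, these counts and the exact permutation p-values of single regions describe the list and are no independent evidence.

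**Figure D2:**
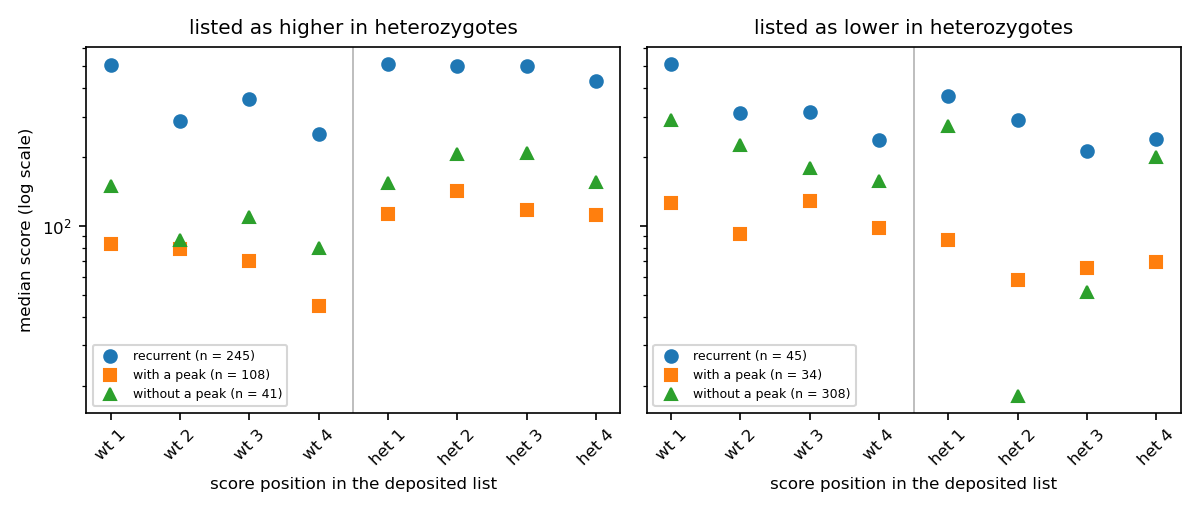
Median score (log axis) at each score position for regions listed as higher (left) and lower (right), split into recurrent regions, regions with a peak and regions without one. Among the 308 lower regions without a peak, heterozygote scores 2 and 3 have medians of 18 and 51.5 while the other 6 positions lie between 157.5 and 290.5.

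The 308 lower regions without a peak were alike in form. Their median width was 350 bp, and 299 of them were 300 to 400 bp wide. They were scattered over the genome, 94 inside protein-coding genes, 4 near a start, 20 in other genes and 190 between genes. Their median scores were 290.5, 226.5, 180.0 and 157.5 in wild type and 275.0, 18.0, 51.5 and 200.5 in heterozygotes. Heterozygote scores 1 and 4 were thus inside the wild type range and scores 2 and 3 were far below it. Scores 2 and 3 were the lowest pair of all 8 at 282 of the 308.

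The region with the highest score on the lower side lay between genes at chr10:72297051-72297800, a stretch where all 8 H3K4me1 libraries had a peak. Its wild type scores were 3986865, 3469775, 4226436 and 2180206. Its heterozygote scores were 4268824, 117171, 645797 and 3275159. Scores 2 and 3 came to 3.38% and 18.6% of the wild type mean, and scores 1 and 4 together to 1.09 times it. In the authors' deposited list its p is given as 0. On the log2 scale, 247 of the 781 regions, the region itself included, followed its 8 values with Pearson's r above 0.9. All 247 were listed as lower, and 245 had no peak. These correlations are over 8 scores that share their libraries, and the limit of 0.9 was chosen after the values were seen.

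Trim30a, an interferon-induced TRIM family gene, held the next of these regions at chr7:104427851-104428350. Its wild type scores were 571583, 493326, 600261 and 311747, and its heterozygote scores were 612864, 16392, 89714 and 463272. The ratio of the means was 0.598, with an exact permutation p of 0.286 (n = 4 per group). Only wild type replicate 1 had a peak there, of 10.5-fold, so the high scores of the other libraries come without a called peak. Groups overlapped, since heterozygote score 1 was the highest of all 8.

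The same profile ran through the 12 lower regions that led the authors' deposited list with a gene within 100 kb. Apart from Trim30a, none of them had an H3K4me1 peak in any of the 8 libraries. A high score there therefore does not show that the place carries the mark. After Trim30a came Xrcc4, a DNA end-joining factor, at chr13:89868201-89868600 inside the gene. Its scores were 23439, 21210, 12417 and 13548 in wild type and 26024, 743, 3966 and 19361 in heterozygotes (fold 0.709). Homer1, a scaffold of the postsynaptic density, had 10014, 8629, 5735 and 5657 against 11000, 226, 1979 and 8769 at chr13:93355401-93355800 (fold 0.732). In both genes heterozygote score 1 exceeded every wild type score, while score 2 fell to 4.21% and 3.01% of the wild type mean.

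Scarb2, a lysosomal membrane protein, had wild type scores of 3343, 2797, 3394 and 1558 and heterozygote scores of 3481, 54, 513 and 2337 at chr5:92501701-92502000. Ctnnd2, the neuronal δ-catenin, had 10153, 8773, 4480 and 5985 against 10745, 260, 1839 and 8504 at chr15:30747701-30748100. Wild type score 3 varied in its place among these regions. It was the highest of its group at Scarb2 and Trim30a and the lowest at Ctnnd2 and Xrcc4. At Homer1, Sec61g, Gm21936, Gprin3 and Gucy1b2 it was neither. Near Ctnna2, an α-catenin of neurons, it fell to 3528 beside 10998, 9256 and 5713 at chr6:78033251-78033600.

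The remaining 6 lay near or in Sec61g (29117 bp away), Gm21936, Gprin3, Afm, Gucy1b2 and Lama4. Their folds ran from 0.563 at Sec61g to 0.746 at Afm, and the exact permutation p over the 12 regions from 0.2 to 0.6. Heterozygote scores 2 and 3 were the lowest of the 8 at each of them.

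**Figure D3:**
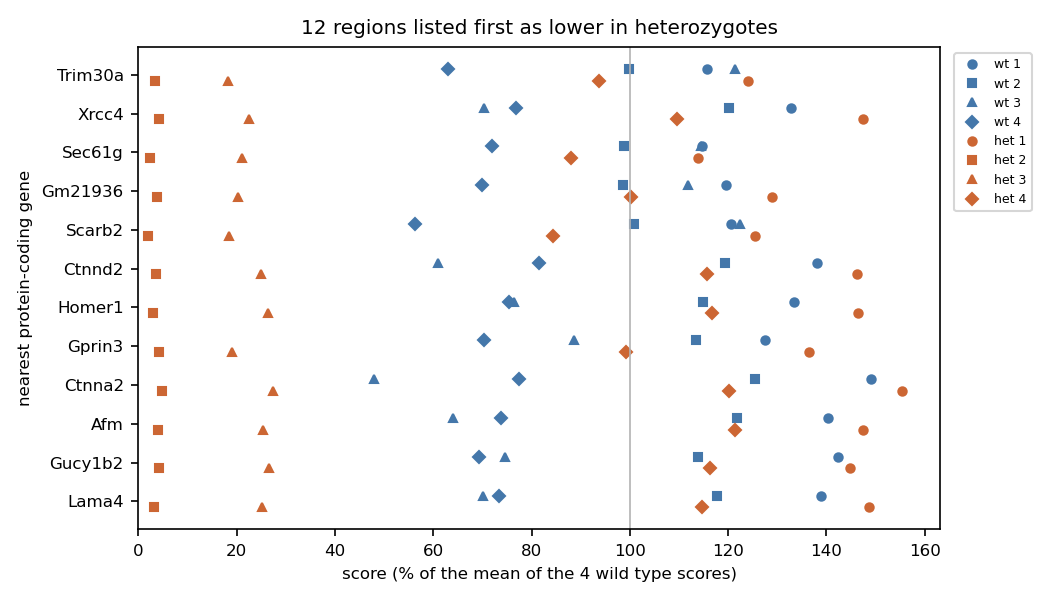
The 8 scores of the 12 regions listed first as lower, as percent of the mean of the 4 wild type scores, by nearest protein-coding gene. Heterozygote scores 2 and 3 stand apart at the left in every row, at 1.95% to 4.84% and 18.2% to 27.4%, while heterozygote scores 1 and 4 lie among or above the wild type points.

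Libraries that stood apart were visible in the peak lists as well, where libraries are named. Whether heterozygote scores 2 and 3 belong to replicates 2 and 3 is not stated. At the strongest peak of each library, chr2:98666151-98667450, the authors' fold enrichment was 14100, 14734, 15419 and 13749 in wild type replicates 1 to 4. It was 15952, 5836, 6296 and 14163 in heterozygote replicates 1 to 4, and in replicates 2 and 3 the peak was called as 1 wider stretch starting near chr2:98662228. At chr6:103649001-103649500, inside the cell adhesion gene Chl1, 6 libraries had a peak of 941-fold to 2204-fold and heterozygote replicates 2 and 3 had none. The score list nevertheless put that region as higher, with 198818, 68933, 109339 and 100291 against 228819, 191187, 123485 and 84992. Peaks on chromosome Y before 90 Mb were found in wild type replicate 2 (3 peaks) and heterozygote replicates 2 and 4 (7 and 3). Over 10 regions of that stretch, wild type score 2 and heterozygote scores 2 and 4 had medians of 285, 592 and 266 and the other 5 scores had 0.

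Without heterozygote scores 2 and 3, 161 regions were lower and 619 higher, against 387 and 394 with all 8. Among the 308 lower regions without a peak, 72 then remained below the wild type mean. Over the 781 regions, the log2 scores of the 6 other positions correlated with each other at 0.903 to 0.985, and those of heterozygote scores 2 and 3 with them at 0.596 to 0.870. Over the 411 regions with a peak or recurrent and not on chromosome Y, both ranges lay between 0.940 and 0.988. The part of the heterozygous genotype in this difference between libraries was not tested.

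The H3K4me3 list of the same mice served as a second readout. It held 2015 regions, 86.0% of them lower in heterozygotes, and overlapped 377 of the 781 H3K4me1 regions. Of the 308 lower regions without a peak, 149 were met, 144 by a lower and 5 by a higher H3K4me3 region. At the chr10 region the H3K4me3 scores were 2347607, 1733790, 602877 and 1531546 in wild type and 2679819, 372071, 1591423 and 794390 in heterozygotes, where heterozygote score 2 was the lowest, followed by wild type score 3 and heterozygote score 4. Only 5 of the 308 had an H3K4me3 peak in any of the 8 vehicle mice. Of the 245 higher recurrent regions, 121 were met by a higher and 38 by a lower H3K4me3 region.

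Regions with a peak or on recurrent stretches leaned the other way. Of these 432, 353 (81.7%) were higher and 79 (18.3%) lower in heterozygotes. The need for a peak bears on that direction. Of the 142 regions with a peak outside recurrent stretches, 55 had one in heterozygote libraries only, and all 55 were higher. Another 11 had one in wild type libraries only (3 higher, 8 lower), and 76 in both genotypes (50 higher, 26 lower). The median scores were 253.0, 173.0, 206.5 and 136.5 in wild type and 259.5, 292.0, 264.0 and 225.0 in heterozygotes, so wild type scores 2 and 4 were the lowest. Without heterozygote scores 2 and 3 the split was 345 higher to 86 lower. When each library was divided by its median over these regions, the split was 193 higher to 239 lower. That scaling sets the 8 medians equal, so a split near even follows from it and does not test the lean. Over all 781 regions the scaling gave 221 higher (28.3%) and 560 lower.

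Runs of at least 10 regions less than 100 kb apart formed 9 clusters, 2 of which overlapped no protein-coding gene. A pair of neighbouring clusters at chr1:84962601-85628150, 666 kb that hold Sp110, Sp140 and several predicted relatives, took 99 regions. Of these, 82 were higher and 17 lower, and 82 were recurrent. Their median scores were 221, 160, 187 and 114 in wild type and 245, 208, 212 and 202 in heterozygotes, with a median fold of 1.33. Heterozygote scores 2 to 4 lay close together, and wild type scores 2 to 4 ranged lower. At 6 regions the groups did not overlap in the scores as deposited, all higher. Over all 432 regions with a peak or recurrent, 81.7% were higher and the median fold was 1.32. There, 26 higher regions did not overlap. The cluster pair thus lay near the values of all such regions.

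At Sp110 the region chr1:85590451-85591100 had scores of 180, 101, 160 and 94 in wild type and 224, 255, 202 and 182 in heterozygotes. The means were 134 ± 42.7 and 216 ± 31.3 (SD, n = 4), a fold of 1.61 with an exact permutation p of 0.0286. At Gm7592, chr1:85494501-85495400 had 181, 139, 241 and 93 against 321, 273, 264 and 270 (fold 1.72). Divided by each library's median over regions with a peak or recurrent, the groups overlapped at both regions. Under the list median they stayed apart at the Sp110 region and overlapped at the Gm7592 one. Over the Sp140 promoter printed above, chr1:85600551-85601200 averaged 214 ± 58.6 and 294 ± 67.9 (SD, n = 4, fold 1.37), and over the Sp110 promoter chr1:85598751-85599400 averaged 169 ± 54.4 and 224 ± 65.8 (fold 1.32). Both promoter regions overlapped between groups, with exact permutation p of 0.114 and 0.314.

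**Figure D4:**
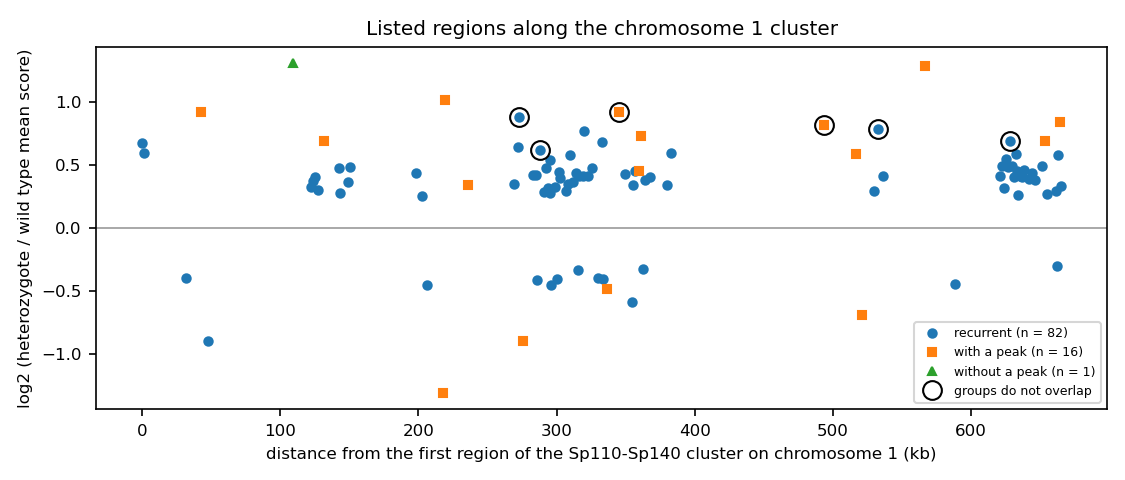
Log2 ratio of mean scores, heterozygote over wild type, for the 99 listed regions of the Sp110-Sp140 cluster on chromosome 1 by distance in kb from its first region. Symbols give the peak class and circles the 6 regions whose groups do not overlap; 82 regions lie above 0 and 17 below.

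The Hjurp and Ugt1a stretch at chr1:88211651-88288950 added 14 regions, 10 higher and 4 lower. Hjurp is the chaperone that deposits the centromeric histone CENP-A, and the Ugt1a genes conjugate glucuronic acid to bilirubin and drugs. Inside Hjurp, chr1:88264901-88265200 had 50, 40, 43 and 32 in wild type and 71, 70, 104 and 90 in heterozygotes (fold 2.03). The groups did not overlap there.

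On chromosome 6 a cluster of 28 regions (27 higher, 1 lower) at chr6:47653351-47764650 held the Gm36327, Gm40367 and Gm40369 promoters with identical letters. Its median scores were 146.0, 104.0, 133.5 and 102.5 in wild type and 121.5, 200, 265 and 117.5 in heterozygotes. Here heterozygote scores 1 and 4 lay among the wild type values and scores 2 and 3 above them. At no region of this cluster did the groups separate. The Gm36327 promoter lay in chr6:47673201-47676100, which averaged 571 ± 127 and 816 ± 287 (SD, n = 4, fold 1.43).

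The Sfi1 cluster at chr11:3103801-3199900 held 38 regions, 36 higher, around a centriole protein gene. Its median score was 1522 in wild type and 1818 in heterozygotes, and the groups overlapped at all 38. The 28 regions at the start of chromosome 9 (chr9:3000001-3037450), 19 higher and 9 lower, had medians of 25148 and 25836 and likewise overlapped throughout. At Duxf3, chr10:58233301-58234100 had 268, 228, 182 and 137 in wild type and 396, 327, 368 and 304 in heterozygotes, with no overlap (fold 1.71). Its groups overlapped once scores were divided by each library's median over regions with a peak or recurrent, but stayed apart under the list median. In the same cluster chr10:58227451-58227700 was lower, with 81, 64, 73 and 67 against 21, 36, 35 and 59 (fold 0.530).

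KRAB zinc finger genes on distal chromosome 4, a family known for silencing transposable elements, held or lay near several regions whose groups did not overlap in the scores as deposited. Inside Zfp978, chr4:147339501-147339850 had 69, 44, 62 and 5 in wild type and 141, 117, 94 and 104 in heterozygotes (fold 2.53). A neighbouring region, chr4:147338251-147338650, had 76, 36, 106 and 46 against 159, 146, 139 and 118 (fold 2.13). None of the wild type libraries had a peak at either, and 2 and 3 heterozygote libraries did. Zfp992 (chr4:146478851-146479300, 9411 bp from the gene) had 99, 20, 115 and 68 against 144, 150, 146 and 189 (fold 2.08), with a peak in 4 heterozygote and 0 wild type libraries. In the cluster around Zfp978 as a whole, 13 of 24 regions were higher and 11 lower. Near Zfp982, chr4:147428551-147428900 was lower, with 195, 105, 106 and 109 against 86, 94, 76 and 81 (fold 0.654). Divided by each library's median over the list, the groups separated only at the first of these 4 regions, with exact permutation p of 0.0571 at the second Zfp978 region and at Zfp992 and of 0.343 at Zfp982. Divided by the median over regions with a peak or recurrent, exact permutation p was 0.0571 at the second Zfp978 region and 0.114 at Zfp992. Under that scaling the groups stayed apart at the first Zfp978 region and at Zfp982.

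**Figure D5:**
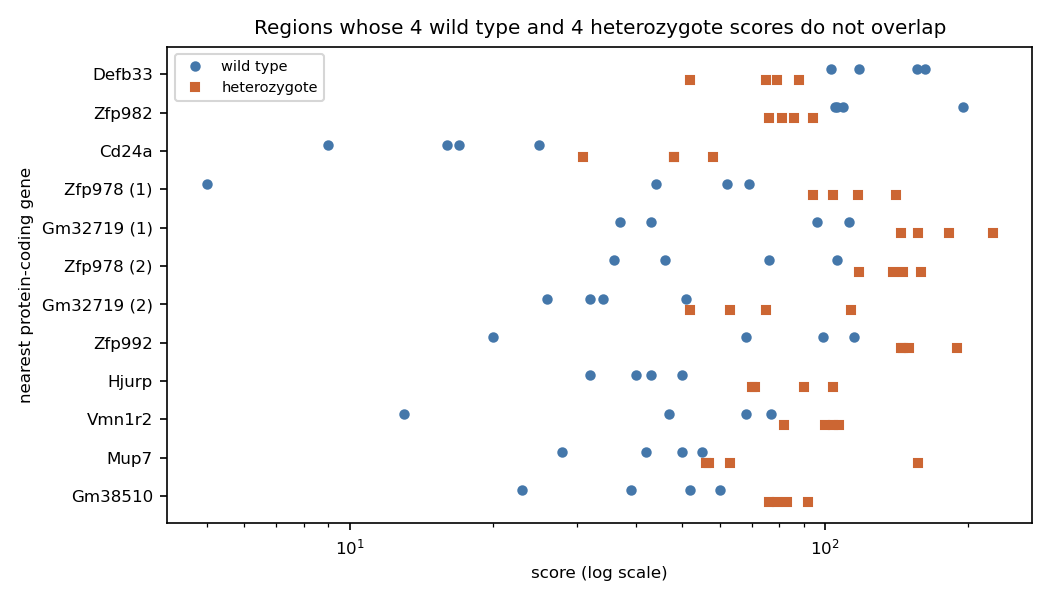
Scores (log axis) of the 12 regions named for separate groups, outside recurrent stretches and on autosomes or chromosome X, by nearest protein-coding gene; numbers in brackets tell regions of a gene apart. Circles are the 4 wild type and squares the 4 heterozygote scores; Defb33 and Zfp982 are lower in heterozygotes and the other 10 regions higher.

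Apart from the clusters, Gm32719 on chromosome 12 had a pair of such regions. At chr12:20232801-20233450, 7289 bp away, wild type scores were 43, 112, 37 and 96 and heterozygote scores 225, 182, 157 and 144 (fold 2.46). Near Cd24a, a surface glycoprotein of progenitors and blood cells, chr10:43562801-43562950 had 25, 9, 17 and 16 against 31, 48, 48 and 58 (fold 2.76). All 4 heterozygote libraries and no wild type library had a peak there, at low scores. Near the β-defensin gene Defb33, chr8:20812501-20812900 was lower, with 118, 162, 156 and 103 against 79, 52, 88 and 75 (fold 0.545). Separation was lost at Defb33 under the list median (exact permutation p = 0.0571) and kept under the median over regions with a peak or recurrent. At this Gm32719 region it was kept under the list median and lost under the other (exact permutation p = 0.286).

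A synaptic gene was among the single regions with a peak. Gphn encodes gephyrin, the scaffold of inhibitory synapses, and is named here after its values were seen. Its region at chr12:78350851-78351300 had 173, 203, 212 and 151 in wild type and 375, 254, 253 and 225 in heterozygotes. The means were 185 ± 28.0 and 277 ± 66.9 (SD, n = 4, a ratio of 1.5, exact permutation p = 0.0286), and 1 heterozygote library had a peak. The Gphn groups overlapped once scores were divided by the list median. They also overlapped under the median over regions with a peak or recurrent. Dlgap2, a postsynaptic scaffold of excitatory synapses, had 119, 168, 169 and 67 against 134, 392, 349 and 241 at chr8:14306751-14307500 (fold 2.13, exact permutation p = 0.0857). Its groups overlapped through heterozygote score 1.

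Recurrent regions took many of the smallest p-values among the higher regions of the authors' deposited list. Near Zfp825, another zinc finger gene, chr13:74528451-74531050 had 5769, 4026, 3936 and 3319 in wild type and 7729, 6587, 8413 and 6472 in heterozygotes (fold 1.71), with no overlap. Divided by each library's median over regions with a peak or recurrent, the groups overlapped there, but they stayed apart under the list median. Outside recurrent stretches, the other higher regions that came first by p had overlapping groups. Near Dpy19l2 scores were 9200, 3257, 6106 and 4509 against 10939, 11195, 6492 and 4807 (fold 1.45), with no peak in any of the 8 libraries. Inside Cpeb4, a regulator of mRNA polyadenylation, they were 4, 43, 2 and 4 against 20, 236, 19 and 63 (fold 6.38), so heterozygote score 2 carried most of the difference. The other regions of this group lay at Tcstv3, Ccr1, Mid1, Lmbrd1, Gm40363 and Grk5, with folds from 1.31 at Tcstv3 to 3.33 at Lmbrd1.

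Few genes of the pathways and cell types at issue were near a region, though their share exceeded that of all protein-coding genes. A listed region lay inside or within 2 kb of 185 of 21900 protein-coding genes (0.845%), 129 with a lower (0.589%) and 79 with a higher one (0.361%). Among 361 genes in 17 lists the count was 8 (2.22%), 7 with a lower and 1 with a higher region. In 10 lists it was 0: the 18 H3K4 methyltransferase complex genes, the 16 H3K4 demethylase and LSD1-CoREST genes, the 22 enhancer co-activator genes, the 24 neural progenitor genes, voltage-gated channels, astrocytes, oligodendrocyte lineage, microglia, choroid plexus and blood cells. The 8 genes had a median length of 438 kb, against 50.8 kb for all list genes and 17.1 kb for all protein-coding genes. The part of gene length in these shares was not tested.

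Excitatory neuron and synapse genes gave 3 of 30: Gria2, an AMPA receptor subunit, Nlgn1, a postsynaptic adhesion protein, and Homer1. All 3 regions were lower and without a peak. Homer1 also made 1 of 20 immediate early genes, and Gria2 1 of 38 glutamate and GABA receptor genes. Gria2 had 591, 452, 463 and 215 in wild type and 607, 31, 108 and 416 in heterozygotes at chr3:80717351-80717750 (fold 0.675). Nlgn1 had 1145, 1156, 350 and 580 against 1197, 36, 211 and 971 at chr3:25880001-25880350 (fold 0.747). Both again had heterozygote scores 2 and 3 at the bottom and score 1 at the top. The other lower ones, Erbb4 (1 of 18 inhibitory neuron genes), Tek (1 of 12 vascular genes), Tenm4 and Lrp1b (with Nlgn1, 3 of 45 axon guidance and adhesion genes), had folds from 0.629 to 0.692 and no peak. Wls (1 of 29 Wnt genes) had a recurrent region at chr3:159939351-159939900 with 2868, 1730, 1879 and 1842 against 2804, 2993, 2847 and 1088 (fold 1.17).

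Kmt2d itself (chr15:98831669-98874077), the H3K27 demethylase gene Kdm6a (chrX:18160862-18279936) and Kdm1a (chr4:136550533-136602787) had no H3K4me1 peak within 2 kb in any of the 8 libraries. The nearest listed regions were 393 kb, 907 kb and 4266 kb away. These lists therefore give no H3K4me1 value at the genes, and give no check of the Kmt2d genotype.

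Chromosome X had 32 regions, 25 lower and 7 higher, and 23 of the lower ones were without a peak. Chromosome Y had 28, 22 of them higher, in libraries that differ in Y chromosome signal. The distal end of Y, where the pseudoautosomal region lies (chrY:90738001-90811200), had 11 regions, all higher, with a median of 79 in wild type and 121 in heterozygotes. By score position the medians were 106, 64, 72 and 31 in wild type and 112, 148, 151 and 93 in heterozygotes, so they overlapped. At 1 of the 11 regions the groups did not overlap. Near Mid1, which spans the pseudoautosomal boundary of X, chrX:169993551-169995050 had 276, 155, 290 and 192 against 366, 442, 561 and 449 (fold 1.99), with a peak in 4 heterozygote and 0 wild type libraries. The groups did not overlap at that region in the scores as deposited, but did once scores were divided by the list median. Under the median over regions with a peak or recurrent they stayed apart, narrowly.

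Values from the lists of TAK-418-treated mice stand beside these, each normalized separately by the authors and sharing the vehicle mice. At Trim30a, vehicle heterozygotes had 609459, 16489, 90109 and 465875 in the list against TAK-418, where treated heterozygotes had 611578, 497036, 414746 and 243509. Treated wild type mice (n = 3) had 276963, 446043 and 338608 there. At Homer1 the 4 treated heterozygotes had 3212, 8516, 7461 and 4349. No treated score was as low as vehicle heterozygote score 2 at either gene. At Zfp978 (chr4:147338251-147338650), vehicle heterozygotes had 158, 146, 139 and 118 and treated ones 77, 70, 113 and 67. In wild type, a part of it (chr4:147338351-147338500) went the other way, from 24.5 ± 10.8 with vehicle to 41.3 ± 5.51 treated (SD, n = 4 and 3). Near Mid1 (chrX:170004351-170004800), also listed as higher, heterozygotes averaged 121 ± 51.0 with vehicle and 178.5 ± 101 treated (SD, n = 4). The effect of TAK-418 on these regions was not tested.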

How the data were processed

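Libraries were H3K4me1 and H3K4me3 ChIP-seq of mouse hippocampus, mapped to mm10, with MACS, MACS2 and bedtools named in the submitters' processing notes. The authors deposited 1 broad peak list per library, with fold enrichment as a ratio and p and q values as −log10. The deposited differential lists hold colon-joined scores, 1 per library, and a −log10 p-value. The tool and normalization behind these scores are not given in the sources used here, nor are read depths, so no interval for counting error can be given. Score order is constant within a list and names no library. The members and gene lists were chosen with earlier results of these data known.

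Means, folds and non-overlap were computed from the scores as deposited. limma 3.58.1 in R 4.3.3 (lmFit, eBayes with trend, Benjamini-Hochberg adjustment over 781 regions) used log2(score + 1) and was tested on simulated data. The simulated scores had independent noise and larger changes than most listed regions. They therefore do not bear on the power to call regions of this list. Python 3.11.15 ran two-sided exact permutation tests of 4 against 4. Each H3K4me1 library is 1 mouse, so p-values measure the spread between mice and libraries together. Recurrent stretches were bases under peaks of at least 8 libraries of each mark. Genes came from RefSeq GRCm38.p6, matched by coordinates.

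Named regions were, outside recurrent stretches, on autosomes or X and with a protein-coding gene within 100 kb: the first 12 lower and 12 higher by the authors' p, 1 per gene; up to 10 per direction with non-overlapping groups and the largest fold; every list gene with a region inside or within 2 kb; and Kmt2d, Kdm6a and Kdm1a. Regions on recurrent stretches, Gphn and the printed promoters were added after their values were seen. Alternatives were other p limits, medians, scalings, pseudocounts, filters and left-out libraries.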

Additional observations from a re-analysis of the deposited data

Results flagged for a closer look

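Among the named regions, 7 of 80 groups of 4 scores held a score whose gap to the nearest other exceeded Dixon's 95% critical share of the group's range. Chance flags about 1 in 20 groups. Over the whole list 48 wild type and 47 heterozygote groups of 781 did so. At Wls both groups had such a score, wild type score 1 at 2868 and heterozygote score 4 at 1088. At Tcstv3, heterozygote score 4 was low at 843. High single scores were 157 for Mup7 (heterozygote score 3), 189 for Zfp992 (heterozygote score 4), 195 for Zfp982 (wild type score 1) and 43 for Cpeb4 (wild type score 2).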

How the results depend on the processing

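Regions lower and higher in heterozygotes numbered 387 and 394. They were 215 and 231 at a −log10 p of at least 3, and 149 were higher outside recurrent stretches. Leaving out 1 library gave 353 to 415 lower and 366 to 428 higher. Non-overlapping regions, 4 lower and 27 higher, became 19 lower and 37 higher when divided by the list median. Outside recurrent stretches they were 3 lower and 14 higher. The settings of the next 4 sentences were chosen after seeing the data. Without heterozygote scores 2 and 3 there were 161 lower and 619 higher, with 8 and 69 not overlapping. Regions with a peak or recurrent gave 79 lower, or 86 without these scores. Divided by each library's median over those regions, the list gave 221 higher, with 59 lower and 6 higher not overlapping. Those regions alone gave 239 lower and 193 higher, a split that the division itself brings near even. limma called 0 regions in every setting run (adjusted p of 0.05), with 7 to 156 at an unadjusted p under 0.05.

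Peak measures kept their direction and passed no threshold in any setting. Without 1 library, ratios were 1.14 to 1.89 (number), 1.26 to 1.94 (covered length) and 1.08 to 1.66 (genes). The differences were 71.0 to 153 bp (width) and -0.809 to -0.226 (fold enrichment). Outside recurrent stretches the ratios were 3.36, 3.98 and 2.59, and the differences 3.5 bp (exact permutation p = 1) and -0.195. Of 40 named regions, 2 reversed when scores were divided by the median over regions with a peak, Wls (log2 -0.26) and Tcstv3 (log2 -0.14), and 7 lost an exact permutation p under 0.05 under that scaling and likewise under the list-median one. The causes were not tested. No paired analysis was possible because the scores carry no animal number and the genotypes are different animals.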
